A study of Mus musculus with 117 samples.

Results

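The phospholipase A2 family was followed here through 9 genes, Pla2g1b, Pla2g2a, Pla2g2d, Pla2g4a, Pla2g5, Pla2g6, Pla2g7, Pla2g10 and Pla2g12a, in exocrine glands of NOD-scid and B6-scid mice. Every probe set that the array annotation gave to just 1 of these symbols was taken. That made 19 probe sets of 36701, and 9 of 15964 genes with such a probe set. A further 8 genes of the same naming series had probe sets on the arrays and were not members. The family was picked because a Pla2g12a probe set differed between the strains in these mice, so the strain differences below are a description and support nothing about the choice.

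All mice were female. The NOD-scid strain was NOD.CB17-Prkdc scid/J and the B6-scid strain was B6.CB17-Prkdc scid/SzJ. NOD mice develop autoimmune disease of the pancreatic islets and of the salivary and lacrimal glands, and B6 mice do not. Both strains carried the Prkdc scid mutation, which blocks the maturation of T and B cells and leaves macrophages and other innate cells in place. The groups thus compare strains in which that maturation is blocked, and the absence of lymphocytes from these glands was not tested. The 8 groups took, from either strain, the pancreas of mice aged 6 weeks, the submandibular gland at 9 or 15 weeks of age, and the lacrimal gland at 15 weeks. Each group had 5 mice, except the NOD-scid lacrimal group with 4. Per the labels, submandibular glands were freed of sublingual gland, connective tissue and fat, and each sample was the gland of 1 numbered mouse. RNA of whole glands was hybridised to Affymetrix MG-U74v2 arrays A, B and C. In such bulk RNA, fewer cells of a type and less RNA per cell cannot be told apart.

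Phospholipases A2 release a fatty acid, often arachidonic acid, from membrane phospholipids, and leave a lysophospholipid. The arachidonic acid feeds the synthesis of prostaglandins and leukotrienes, and the lysophospholipid is either reacylated or acts on receptors. The family has secreted enzymes (Pla2g1b, Pla2g2a, Pla2g2d, Pla2g5, Pla2g10, Pla2g12a), a calcium-dependent cytosolic enzyme that prefers arachidonic acid (Pla2g4a), a calcium-independent enzyme (Pla2g6) and an enzyme that inactivates platelet-activating factor (Pla2g7). In the pancreas, Pla2g1b is made by acinar cells as a proenzyme and digests dietary phospholipid in the gut.

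A probe set is a group of short oligonucleotides that together report 1 transcript. Its value is given here as a scaled signal, an intensity on a linear scale on which the trimmed mean of every array is 500. Signals under 100 are low on this scale. Log2 differences are of log2(signal + 32), with the SE from the fit, and they understate the change of low signals. A difference is called when its Benjamini-Hochberg adjusted p over all probe sets tested, from limma, is under 0.05. Signals of different probe sets are not compared as levels, because probes differ in brightness. In Affymetrix names, the suffix f marks probes that match several similar transcripts, i marks a probe set with fewer probes unique to it than usual, and r marks one for which some design rules were dropped.

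By summed signal, which few bright genes can carry, the labelled tissues carried their own markers. The summed signal of 9 pancreatic acinar genes was 1579350 to 2098270 in pancreas and at most 24630 in the other glands, except for 199337 in NOD-scid submandibular mouse 1 at 9 weeks. Summed lacrimal markers (3 genes) were at least 75198 in every lacrimal gland, though in each strain 1 of the 3 genes had a mean under 100 there. Salivary markers (6 genes) summed to 130599 to 326626 in submandibular gland. In lacrimal gland these salivary markers summed to 442094 and 535433 in B6-scid mice 2 and 3, against 44654 to 53225 in the other B6-scid mice. In NOD-scid lacrimal gland they summed to 4128 to 5277, with 81066 in mouse 4. At 9 weeks, lacrimal markers reached 842 to 30226 in submandibular gland, and at 15 weeks they stayed at or under 13270.

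Pla2g12a encodes a secreted phospholipase A2 of low catalytic activity, and 1 of its probe sets, 104343_f_at, was lower in NOD-scid than in B6-scid mice in every gland and at every age. In pancreas the scaled signals were 6406, 6376, 6534, 4963 and 6042 in the B6-scid mice and 3216, 2772, 3366, 2392 and 2724 in the NOD-scid mice. In submandibular gland at 9 weeks they were 11394, 8006, 9394, 10844 and 9504 in B6-scid and 2483, 1418, 1912, 1312 and 1713 in NOD-scid mice. Every NOD-scid mouse lay below every B6-scid mouse in both glands. At 15 weeks the submandibular signals were 11328, 12033, 11312, 13194 and 13998 in B6-scid and 1983, 1917, 1690, 2078 and 1578 in NOD-scid mice. In lacrimal gland they were 12740, 25370, 20146, 10136 and 9936 in B6-scid and 3873, 5195, 4693 and 4611 in NOD-scid mice. The strains did not overlap there either, and B6-scid mice 2 and 3, whose salivary markers were high, were the brightest.

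The log2 differences of 104343_f_at, NOD-scid minus B6-scid, were -1.06 (SE 0.17) in pancreas, -2.48 (SE 0.19) in submandibular gland at 9 weeks, -2.72 (SE 0.19) at 15 weeks and -1.67 (SE 0.31) in lacrimal gland. Without B6-scid lacrimal mice 2 and 3 the lacrimal difference was -1.24, and it was then not called (adjusted p = 0.0680 from limma). The pancreas call was lost without any 1 of B6-scid mice 1, 2, 3 or 5 or NOD-scid mice 2 or 5, with adjusted p up to 0.0664 and differences of -1.06 to -1.03. The lacrimal call was lost without any 1 of B6-scid mice 1, 2 or 3 or any NOD-scid mouse, with differences of -1.73 to -1.47 and adjusted p up to 0.101. Both submandibular calls held without each mouse in turn. Of 25450 probe sets tested in all 4 strain comparisons, 32 (0.126%) had no overlap and lower NOD-scid signals in each, and 15 (0.0589%) were called lower in each. The family was chosen on this pattern, and nothing is read from these shares.

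The other Pla2g12a probe set, 104342_i_at, did not follow it. Its signals in pancreas were 201 to 298 in B6-scid and 203 to 406 in NOD-scid mice. In submandibular gland they were 259 to 755 and 525 to 880 at 9 weeks, and 553 to 1101 and 550 to 1043 at 15 weeks, B6-scid first. In lacrimal gland they were 473 to 1438 in B6-scid and 621 to 864 in NOD-scid mice. The strains overlapped in every gland. The log2 differences were 0.11 (SE 0.21) in pancreas, 0.50 (SE 0.28) and -0.02 (SE 0.28) in submandibular gland at 9 and 15 weeks, and -0.16 (SE 0.31) in lacrimal gland, and none was called.

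**Figure D1:**
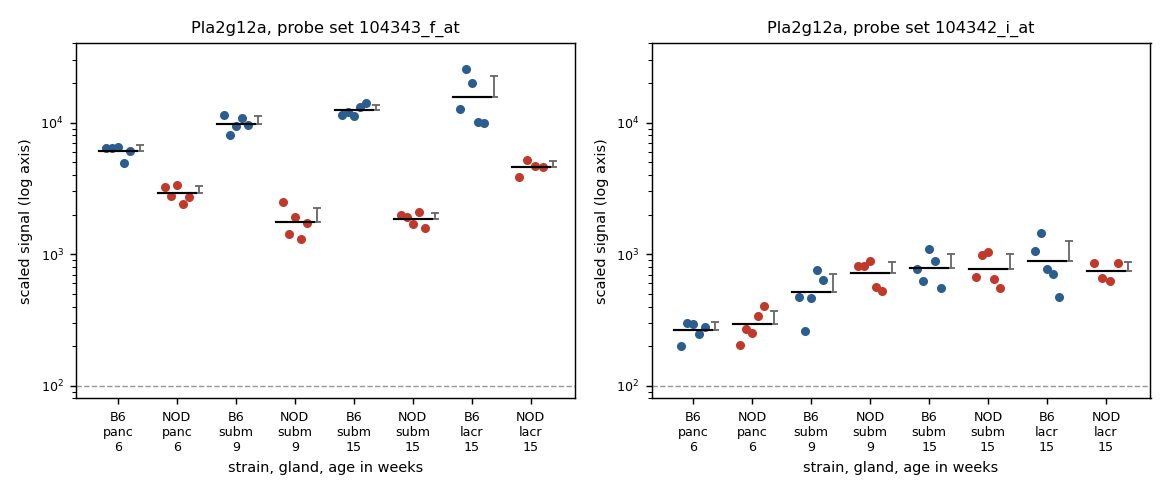
Scaled signal (log axis) of both Pla2g12a probe sets in each mouse, by strain, gland and age in weeks. Points are mice (blue B6-scid, red NOD-scid), black lines are group means, grey whiskers reach 1 SD above the mean and the dashed line is a signal of 100. NOD-scid mice lie below B6-scid mice of the same gland and age in the left panel and overlap with them in the right panel.

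Within a mouse, the log2 ratio of 104343_f_at over 104342_i_at averaged 4.37 ± 0.24 (SD, n = 5) in B6-scid pancreas and 3.19 ± 0.51 (SD, n = 5) in NOD-scid pancreas. It averaged 4.24 ± 0.43 and 1.26 ± 0.36 (SD, n = 5 each) in submandibular gland at 9 weeks, B6-scid first, and 3.96 ± 0.47 and 1.25 ± 0.42 (SD, n = 5 each) at 15 weeks. In lacrimal gland it was 4.08 ± 0.43 (SD, n = 5) in B6-scid and 2.57 ± 0.38 (SD, n = 4) in NOD-scid mice. The B6-scid means of this ratio stayed between 3.96 and 4.37 across glands, and the NOD-scid means were lowest in submandibular gland. Over the 39 mice, which share their group structure, the log2 signals of both probe sets correlated with Pearson's r = 0.127 and Spearman's rho = 0.103, and with r = 0.328 after the group means were removed. So the probe sets of Pla2g12a did not agree on the strain difference.

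The group means of 104343_f_at fell in the order B6-scid lacrimal gland (15666), B6-scid submandibular gland at 15 weeks (12373) and at 9 weeks (9828), B6-scid pancreas (6064), NOD-scid lacrimal gland (4593), NOD-scid pancreas (2894), and NOD-scid submandibular gland at 15 weeks (1849) and at 9 weeks (1768). Neighbours overlapped in their ranges except at 3 steps: below B6-scid submandibular gland at 9 weeks, below NOD-scid lacrimal gland, and below NOD-scid pancreas. For 104342_i_at every pair of neighbours overlapped, and both pancreas groups were lowest, at 264 ± 40.3 (SD, n = 5) in B6-scid and 293 ± 79.0 (SD, n = 5) in NOD-scid mice.

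The genes most like 104343_f_at over the 39 mice were Agpat5 (probe set 163212_at, r = 0.909), Perp (97825_at, r = 0.866) and Tbc1d15 (103471_at, r = 0.857), among 27368 probe sets compared. The Agpat5 probe set averaged 1464 in B6-scid and 490 in NOD-scid pancreas, 2951 and 572 in submandibular gland at 15 weeks, and 3421 and 621 in lacrimal gland. Agpat5, an acyltransferase of phospholipid synthesis, has a second probe set, 103924_at, whose strain differences were 0.23 (SE 0.18) in pancreas, 0.42 (SE 0.23) and 0.23 (SE 0.23) in submandibular gland at 9 and 15 weeks and 0.12 (SE 0.19) in lacrimal gland. Agpat5 163212_at was picked by its likeness to 104343_f_at over these same mice, so its lower NOD-scid means come with that choice. For 103924_at no strain difference was called.

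Among the 19 member probe sets, 15 were tested between the strains in pancreas, 17 in each submandibular comparison and 15 in lacrimal gland. In each comparison 1 was called, always Pla2g12a 104343_f_at. Of all probe sets tested, 0.442% were called in pancreas (0.282% lower in NOD-scid mice), 0.94% (0.526% lower) in submandibular gland at 9 weeks, 0.554% (0.345% lower) at 15 weeks and 0.957% (0.538% lower) in lacrimal gland. Groups without overlap made up 3%, 2.1%, 2.83% and 7.09% of all probe sets in that order. The median log2 difference of the member probe sets was 0.23, 0.13, -0.02 and -0.16 in that order, and that of all probe sets tested was 0.02, 0.03, 0.01 and 0.02. At an unadjusted p under 0.05 the member counts were 4, 2, 2 and 4. The share of all probe sets at that threshold was not counted, here or below, so nothing is read from such counts.

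**Figure D2:**
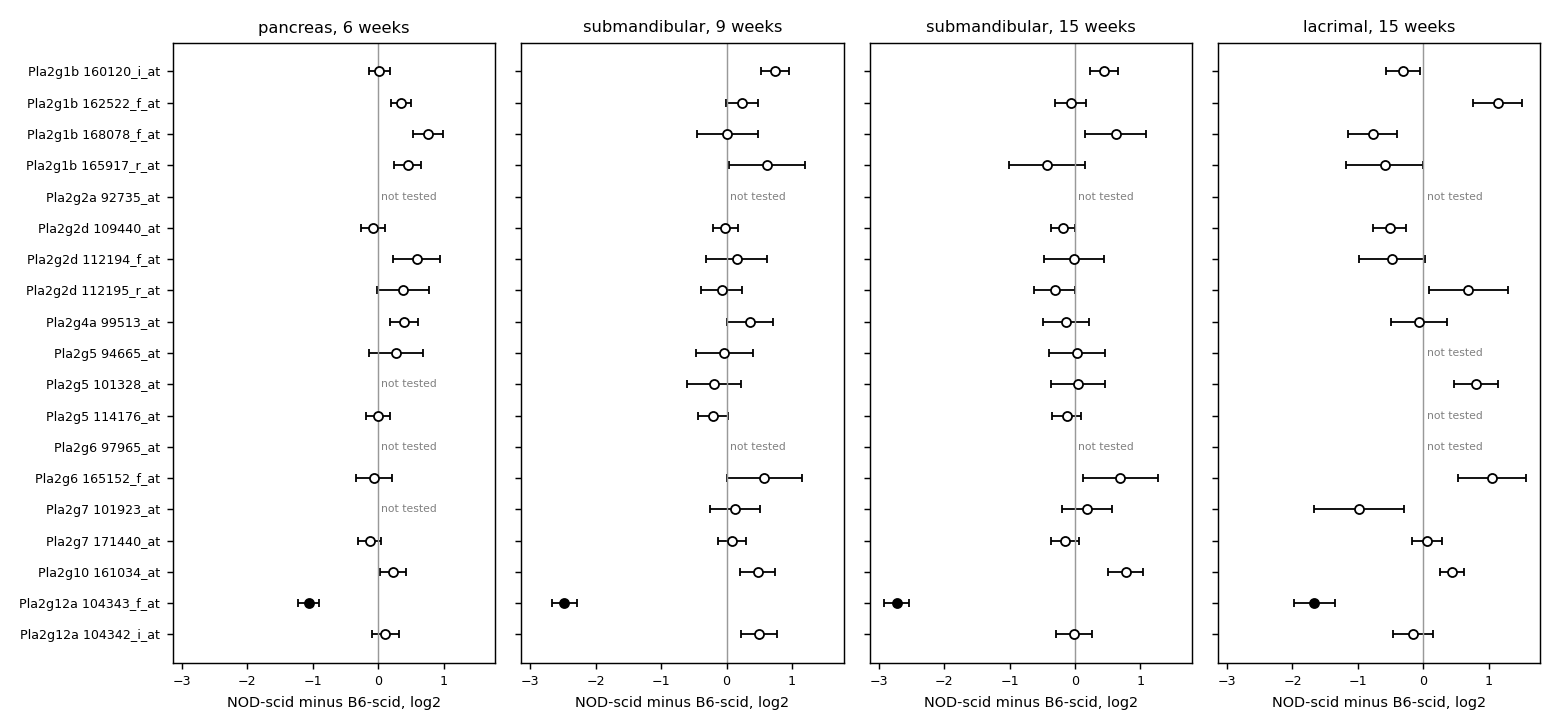
Log2 difference, NOD-scid minus B6-scid, of each member probe set in the 4 strain comparisons. Points are estimates and bars reach 1 SE each way, filled points are called (adjusted p under 0.05, limma), and probe sets with too few signals of at least 100 are marked as not tested. The filled point in each panel is Pla2g12a 104343_f_at.

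Pla2g1b, the digestive phospholipase of the acinar cell, had 4 probe sets, and each was brightest in pancreas. The pancreas mice were also younger than the others, so gland and age cannot be told apart there, and pancreas was not tested against the other glands. Probe set 162522_f_at had a median signal of 65428 over the 10 pancreas samples and 249 over the 29 samples of other glands, a ratio of 263. The corresponding ratio was 181 for 168078_f_at and 320 for 165917_r_at. Probe set 160120_i_at differed from these: its median was 91790 in pancreas and still 28418 in the other glands, a ratio of 3.23. All 29 samples of submandibular and lacrimal gland had at least 14445 on it. Pancreas was thus brightest on all 4 probe sets of Pla2g1b, and the size of its lead differed between them.

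In pancreas, 162522_f_at was 55304, 61473, 59330, 59040 and 59358 in the B6-scid mice and 70103, 71118, 69384, 89702 and 76543 in the NOD-scid mice. Every NOD-scid mouse was above every B6-scid mouse. The same held for 168078_f_at, with 75395 to 112456 in B6-scid and 114878 to 236858 in NOD-scid mice. For 165917_r_at the ranges overlapped, at 65694 to 93025 and 81741 to 143067, and for 160120_i_at they overlapped too, at 79837 to 105291 and 88282 to 110855. The log2 differences were 0.35 (SE 0.15), 0.76 (SE 0.23), 0.45 (SE 0.20) and 0.02 (SE 0.16) in that order, and none was called. Under quantile normalization the first 3 differences were 0.03, -0.02 and -0.04, so no direction is read for Pla2g1b in pancreas. In the other glands no strain difference of Pla2g1b was called either. In lacrimal gland the difference was 1.14 (SE 0.38) for 162522_f_at, called in 1 fit of all 39 mice, and -0.78 (SE 0.38) for 168078_f_at, each with overlapping strains. At 9 weeks it was 0.74 (SE 0.22) for 160120_i_at in submandibular gland, again with overlap.

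**Figure D3:**
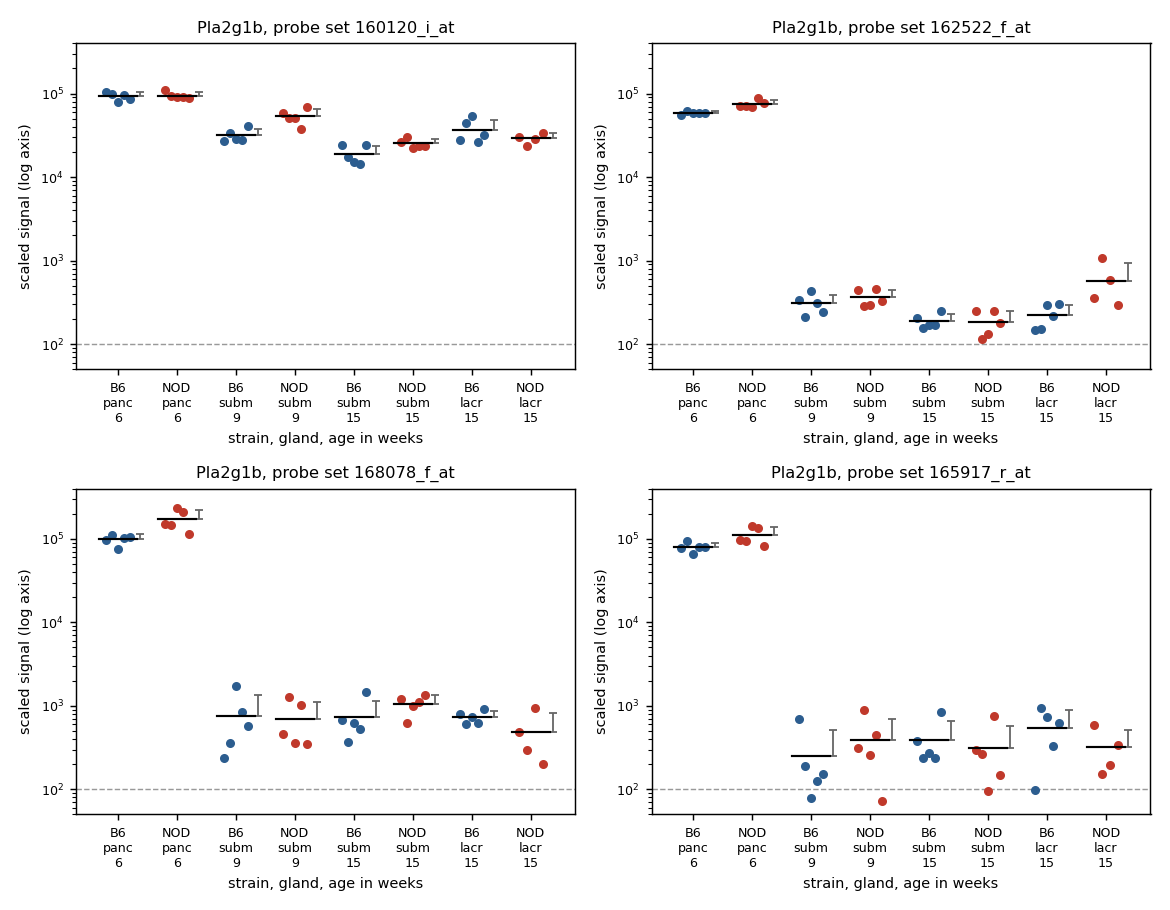
Scaled signal (log axis) of the 4 Pla2g1b probe sets in each mouse, by strain, gland and age in weeks. Points are mice (blue B6-scid, red NOD-scid), black lines are group means, grey whiskers reach 1 SD above the mean and the dashed line is a signal of 100. Pancreas is highest in every panel, and 160120_i_at stays at 14445 or more in the other glands.

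Over the 39 mice the 4 probe sets of Pla2g1b correlated pairwise with r = 0.802 to 0.964 on the log2 scale. Over the 29 samples without pancreas the pairwise r was -0.133 to 0.282, so the agreement came from the difference between pancreas and the other glands. The genes most like 160120_i_at were Rnase1 (98041_at, r = 0.903), which encodes the pancreatic ribonuclease, Clps (160132_at, r = 0.891), which encodes colipase, and Cpn1 (103882_at, r = 0.888), which encodes a carboxypeptidase. Rnase1 averaged 97600 in B6-scid and 85232 in NOD-scid pancreas and at most 483 in any other group.

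Outside the pancreas, 160120_i_at fell with age in the submandibular gland of NOD-scid mice. Its signals there were 59255, 50445, 50450, 37259 and 68942 at 9 weeks and 26666, 30214, 22318, 23848 and 23832 at 15 weeks. The ages did not overlap, and the log2 difference of 15 minus 9 weeks was -1.05 (SE 0.22, adjusted p = 0.0279, limma). In B6-scid mice the signals were 27057, 33360, 28767, 27672 and 41253 at 9 weeks and 24272, 17302, 15113, 14445 and 23930 at 15 weeks. These ages did not overlap either, and the difference of -0.75 (SE 0.22, adjusted p = 0.0988, limma) was not called, though it was in 1 fit of all 39 mice (adjusted p = 0.0329). Whether the strains differ in this change was not tested.

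That NOD-scid call was lost under quantile normalization (-0.65, adjusted p = 0.211) and without any 1 of mice 1 or 5 at 9 weeks or mice 1, 3, 4 or 5 at 15 weeks (-1.07 to -0.95, adjusted p up to 0.0736). Of the other Pla2g1b probe sets, 162522_f_at gave -0.90 (SE 0.24, adjusted p = 0.0796), 168078_f_at 0.74 (SE 0.47) and 165917_r_at -0.27 (SE 0.58) in NOD-scid mice. Summed acinar markers moved with age as well. They were 11946 to 24630 in 4 NOD-scid mice and 199337 in mouse 1 at 9 weeks, and 3570 to 11263 at 15 weeks, with 0 and 1 of the 9 genes at a mean under 100. On 160120_i_at, mouse 1 was below mouse 5 and above the other NOD-scid mice at 9 weeks. The part of such transcripts in the age difference was not tested.

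Of 17 member probe sets tested for age, 0 were called by limma in B6-scid mice, where 1.06% of all probe sets were called. In NOD-scid mice 160120_i_at was the 1 called, lower at 15 weeks, where 0.797% of all probe sets were called and 0.333% were called lower. At an unadjusted p under 0.05 from limma the member counts were 4 in B6-scid and 3 in NOD-scid mice. The shares above use the adjusted p, so these counts are not set against them. The ages did not overlap for 4.04% of all probe sets in B6-scid and 4.06% in NOD-scid mice. Pla2g12a 104343_f_at differed by 0.34 (SE 0.19) between the ages in B6-scid and by 0.09 (SE 0.19) in NOD-scid submandibular gland. The median age difference of the member probe sets was -0.23 in B6-scid and -0.46 in NOD-scid mice, against -0.02 and -0.03 over all probe sets. Several member probe sets belong to the same gene, and those of Pla2g1b did not share a sign in NOD-scid mice. No fall of the family with age is read from these medians.

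At 15 weeks the lacrimal gland was compared with the submandibular gland within each strain, a contrast that did not choose the members but shares mice with those that did. In NOD-scid mice 4 of 17 member probe sets were called, with the lacrimal gland higher for 3 and lower for 1, against 15% of all probe sets, made up of 7.04% higher and 8% lower. In B6-scid mice 1 of 17 was called, higher, where 10.9% of all probe sets were called and 4.96% were called higher. The glands did not overlap for 16.7% of all probe sets in NOD-scid and 10.2% in B6-scid mice. The B6-scid count is near the background, and the NOD-scid count of 4 is too small to be set apart from it.

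Pla2g12a 104343_f_at rose from 1578 to 2078 in NOD-scid submandibular gland to 3873 to 5195 in lacrimal gland, without overlap, a log2 difference of 1.30 (SE 0.24, adjusted p = 0.00127, limma). In B6-scid mice the ranges were 11312 to 13998 and 9936 to 25370 and overlapped, with a log2 difference of 0.24 (SE 0.23, adjusted p = 0.573), and -0.18 without lacrimal mice 2 and 3. The strain difference was thus smaller in lacrimal than in submandibular gland by 1.06 (SE 0.34), which was not called. Of 17 member probe sets, limma called 0 for this difference between glands, where 0.286% of all probe sets were called. At an unadjusted p under 0.05 from limma the member count was 5, which is not set against that share of adjusted p. Without lacrimal mice 2 and 3 the strain difference of 104343_f_at was smaller in lacrimal gland by 1.48, and this was called. The strain contrasts that enter this difference chose the gene. For 104342_i_at the gland differences were 0.12 (SE 0.27) in B6-scid and -0.02 (SE 0.29) in NOD-scid mice, and neither was called.

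The Pla2g1b probe sets gave gland differences that did not match each other. Probe set 162522_f_at was 246, 115, 130, 249 and 179 in NOD-scid submandibular gland and 358, 1067, 581 and 294 in lacrimal gland, a rise of 1.38 on the log2 scale (SE 0.32, adjusted p = 0.00679, limma) without overlap. Probe set 168078_f_at was 628 to 1365 in NOD-scid submandibular and 200 to 945 in lacrimal gland, and it fell by 1.26 on the log2 scale (SE 0.38, adjusted p = 0.0319), with overlap. That second call was lost without any 1 of 6 mice, submandibular mice 1, 3, 4 and 5 and lacrimal mice 2 and 4 (adjusted p up to 0.120), and in 1 fit of all 39 mice (adjusted p = 0.0518). In B6-scid mice the called probe set was 160120_i_at, at 14445 to 24272 in submandibular and 26659 to 54116 in lacrimal gland, a log2 difference of 0.94 (SE 0.22, adjusted p = 0.00896). It was 0.64 and no longer called without B6-scid lacrimal mice 2 and 3 (adjusted p = 0.0769), which had 44262 and 54116 on it. Under quantile normalization it was 0.69 and not called (adjusted p = 0.0516). With the mouse number within a strain as a replicate block, none of these Pla2g1b calls held. The adjusted p from limma was then 0.0564 for 162522_f_at, 0.0570 for 168078_f_at and 0.0556 for 160120_i_at.

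**Figure D4:**
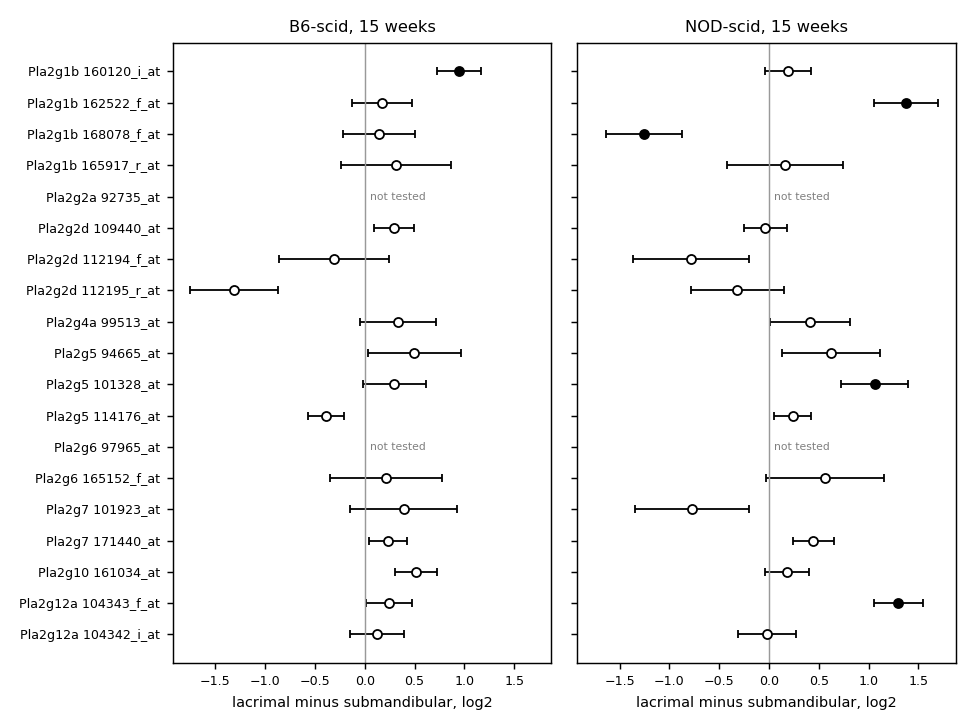
Log2 difference, lacrimal minus submandibular gland at 15 weeks, of each member probe set in B6-scid and in NOD-scid mice. Points are estimates and bars reach 1 SE each way, filled points are called (adjusted p under 0.05, limma), and 2 probe sets were not tested. In NOD-scid mice Pla2g1b 162522_f_at, Pla2g5 101328_at and Pla2g12a 104343_f_at are filled to the right of 0 and Pla2g1b 168078_f_at to the left.

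Pla2g10, a secreted enzyme active on phosphatidylcholine, had 1 probe set, 161034_at, at or above 100 in all 39 mice. Its signals in lacrimal gland were 409, 348, 406, 456 and 531 in B6-scid and 562, 565, 635 and 603 in NOD-scid mice, without overlap. In submandibular gland at 15 weeks they were 379, 371, 249, 209 and 273 in B6-scid and 746, 616, 336, 464 and 517 in NOD-scid mice, with overlap. The NOD-scid mean was the higher in all 4 comparisons, by 0.23 (SE 0.20) in pancreas, 0.48 (SE 0.27) and 0.78 (SE 0.27) in submandibular gland at 9 and 15 weeks and 0.44 (SE 0.19) in lacrimal gland, and none of these was called. In lacrimal gland 7.09% of all probe sets had no overlap between the strains. The genes most like it were Gpld1 (95566_at, r = 0.746), Tmed5 (112730_at, r = 0.730) and Cap2 (139234_at, r = 0.728). In RefSeq the Pla2g10 gene overlaps Pla2g10os, and no source used here says whether the probes tell the strands apart.

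Pla2g7, which inactivates platelet-activating factor and is made largely by macrophages, had probe sets that did not agree. Probe set 101923_at was 12.5 to 55.4 in all 10 pancreas samples and 23.3 to 589 in the other glands, and it reached 100 in 21 mice, none of them a pancreas. In B6-scid lacrimal gland it was 30.1, 589, 308, 31.3 and 194, so mice 2 and 3 were again the highest. In NOD-scid lacrimal gland it was 27.2, 136, 36.7 and 68.2. Its strain differences were 0.13 (SE 0.39) and 0.18 (SE 0.39) in submandibular gland at 9 and 15 weeks and -0.98 (SE 0.69) in lacrimal gland, and it was not tested in pancreas. Probe set 171440_at stayed between 826 and 1817 in all 39 mice, with group means of 1026 to 1422. Over the mice the pair correlated with r = -0.387. Summed macrophage markers (10 genes) were 10386 to 14407 in pancreas and 5078 to 9546 in the other glands, so 101923_at was lowest where they were highest.

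Pla2g2d, a secreted enzyme of lymphoid tissue and dendritic cells, gave 529 to 1341 on probe set 109440_at in all glands. Its group means ran from 1019 ± 164 (SD, n = 5) in B6-scid pancreas to 613 ± 77.8 (SD, n = 4) in NOD-scid lacrimal gland, and every pair of neighbours in that order overlapped. The other probe sets, 112194_f_at and 112195_r_at, spanned 109 to 1631 and 119 to 1923. The 3 probe sets correlated pairwise with r = -0.066 to 0.170 over the mice. None was called in any comparison. Probe set 112195_r_at was lower in B6-scid lacrimal than submandibular gland, by 1.31 on the log2 scale (-1.31, SE 0.44, adjusted p = 0.0630), and it was called without lacrimal mouse 2 (-1.62) or 4 (-1.63) or NOD-scid lacrimal mouse 1 (-1.31).

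Pla2g5, a secreted enzyme of macrophages and heart, was low on its 3 probe sets. Probe sets 94665_at and 101328_at reached 100 in 13 mice each, and 114176_at in 26. Probe set 94665_at was 73.8 to 339 in pancreas, with a median of 142, and 15.1 to 251 in the other glands, with a median of 39.8. Probe set 101328_at was called higher in NOD-scid lacrimal than submandibular gland. Its signals were 49.7, 26.2, 31.1, 127 and 78.7 in submandibular gland and 137, 97.0, 219 and 176 in lacrimal gland, with overlap, and the log2 difference was 1.06 (SE 0.34, adjusted p = 0.0396, limma). The call was lost without any 1 of submandibular mice 1, 2 or 3 or lacrimal mice 1, 3 or 4 (0.91 to 1.10, adjusted p up to 0.119), and in 1 fit of all 39 mice (adjusted p = 0.126). The other probe sets gave 0.62 (SE 0.49) and 0.24 (SE 0.19) for the same contrast, and neither was called. The 3 probe sets correlated pairwise with r = 0.084 to 0.258.

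Pla2g4a, the cytosolic enzyme that supplies arachidonic acid, was at 15.2 to 191 on its single probe set, 99513_at, and reached 100 in 13 of 39 mice. Its group means ran from 58.7 ± 35.5 (SD, n = 5) in NOD-scid submandibular gland at 15 weeks to 128 ± 39.5 (SD, n = 5) in NOD-scid pancreas, and no comparison was called. Pla2g6, the calcium-independent enzyme, had probe set 97965_at at 28.6 to 82.9, under 100 in all 39 mice and never tested. Its second probe set, 165152_f_at, spanned 49.5 to 1200, with group means from 130 ± 26.4 (SD, n = 5) in NOD-scid pancreas to 768 ± 350 (SD, n = 4) in NOD-scid lacrimal gland. It was not called in any comparison, and the pair correlated with r = -0.285.

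Pla2g2a, the secreted enzyme known from inflammatory fluids, stayed at 15.6 to 94.9 on its only probe set, 92735_at, under 100 in all 39 mice of both strains, and was never tested. The RefSeq table of assembly GRCm38.p6, made from C57BL/6J, lists Pla2g2a as a transcribed pseudogene, and the B6 strain is known for a disrupted Pla2g2a gene. The table also lists Pla2g2a and Pla2g5 as overlapping genes. The NOD-scid signals were 25.8 to 75.5 in pancreas and 15.6 to 50.5 in the other glands, as low as those of B6-scid mice.

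**Figure D5:**
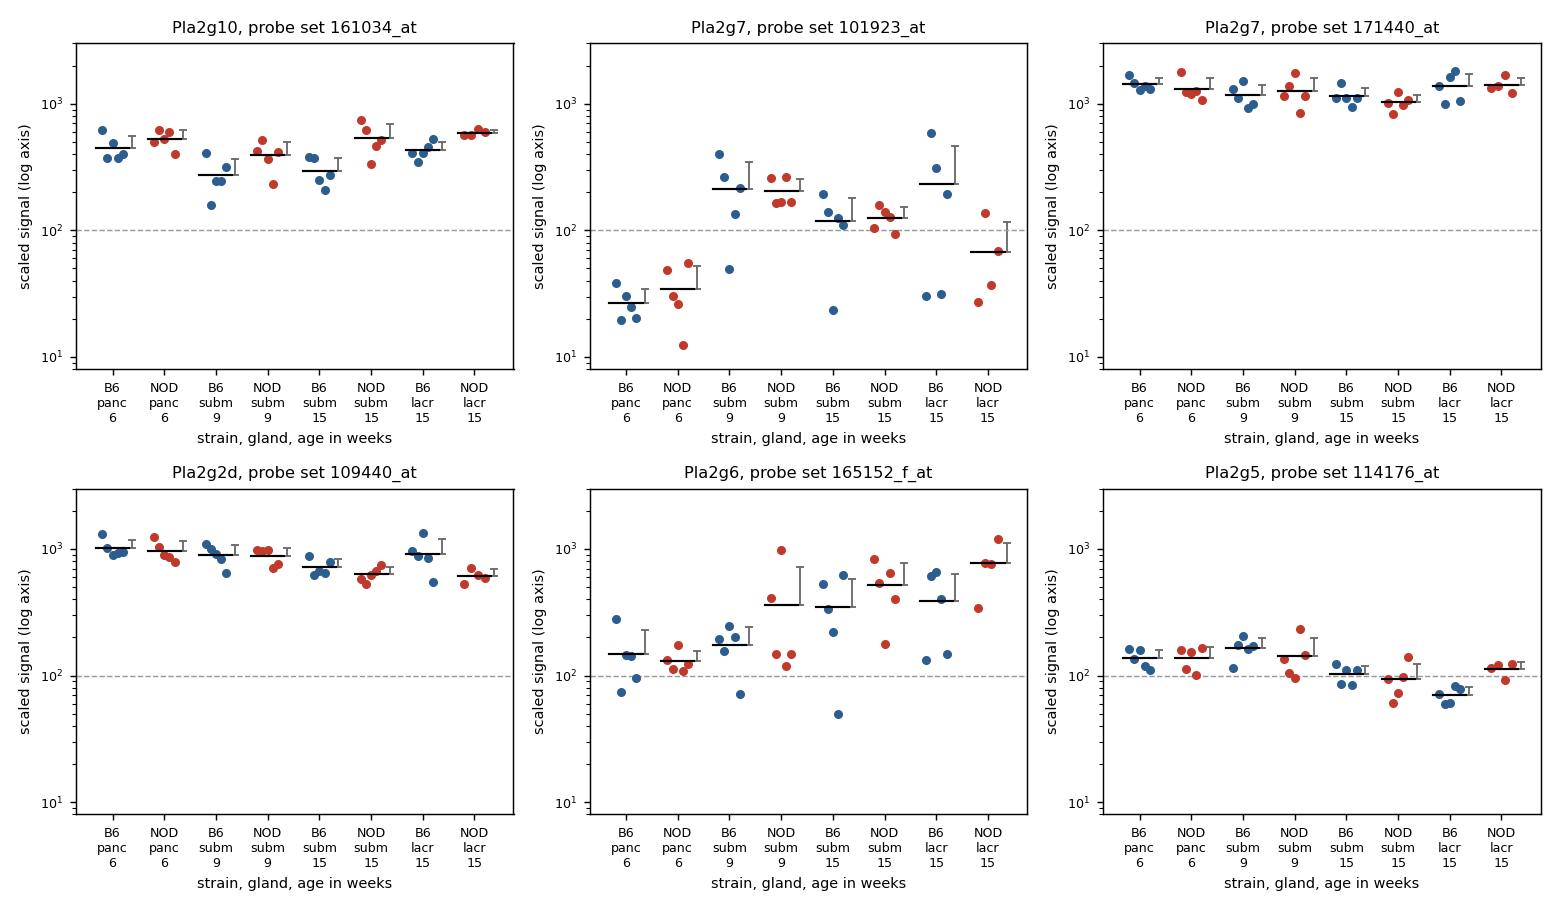
Scaled signal (log axis) of probe sets of Pla2g10, Pla2g7 (2 probe sets), Pla2g2d, Pla2g6 and Pla2g5 in each mouse, by strain, gland and age in weeks. Points are mice (blue B6-scid, red NOD-scid), black lines are group means, grey whiskers reach 1 SD above the mean and the dashed line is a signal of 100. Pla2g7 101923_at lies under 100 in every pancreas sample, while 171440_at stays between 826 and 1817 throughout.

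The genes around the family were followed in 6 lists with 1 probe set per gene: other phospholipases A2 and lysophospholipases, receptors and inhibitors, eicosanoid synthesis, eicosanoid and platelet-activating factor receptors, reacylation and lysophospholipid metabolism, and pancreatic lipid digestion. Between the strains, limma called 0 listed genes of 74 in pancreas, of 74 in submandibular gland at 9 weeks and of 74 at 15 weeks. At an unadjusted p under 0.05 the counts were 8, 4 and 9, and 13 of 70 in lacrimal gland. Of all probe sets, 0.442% to 0.957% were called by adjusted p in these comparisons, so the counts of called genes are near the background. No such share was counted at the unadjusted threshold. In lacrimal gland 1 of 70 was called, Pnliprp1, a pancreatic lipase-related protein, which averaged 46544 ± 8001 (SD, n = 4) in NOD-scid and 15344 ± 6145 (SD, n = 5) in B6-scid mice, a log2 difference of 1.67 (SE 0.30, adjusted p = 0.0369). Without B6-scid lacrimal mice 2 and 3 it was 1.59 and not called (adjusted p = 0.117), and Ltb4r1, a leukotriene B4 receptor, was the 1 listed gene called. Without NOD-scid lacrimal mouse 4 no listed gene was called. These counts rest on 1 probe set per gene, which for Agpat5 is 103924_at and not the probe set that resembled Pla2g12a.

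More pathway genes were called between lacrimal and submandibular gland, where 15% of all probe sets were called in NOD-scid mice (7.04% higher, 8% lower) and 10.9% in B6-scid mice. The list counts below are read against those shares. Of 18 genes of eicosanoid synthesis tested in NOD-scid mice, 2 were called higher and 3 lower in lacrimal gland. Alox12, which encodes a 12-lipoxygenase acting on arachidonic acid, averaged 56.1 ± 5.93 (SD, n = 4) in lacrimal and 755 ± 162 (SD, n = 5) in submandibular gland, a log2 difference of -3.14 (SE 0.25, adjusted p = 7.22e-08, limma). In B6-scid mice it averaged 232 ± 96.8 and 735 ± 27.7 (SD, n = 5 each), lacrimal first, a difference of -1.63. Cbr1, a carbonyl reductase that acts on prostaglandins, rose by 1.22 in NOD-scid mice, and Ptges, a prostaglandin E synthase, rose by 0.72 in B6-scid mice. The list's median difference was 0.01 in NOD-scid and 0.07 in B6-scid mice, against 0.02 and -0.00307 over all probe sets. Without NOD-scid lacrimal mouse 4 the NOD-scid counts were 1 higher and 2 lower of 17.

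Of 10 receptors tested, 3 were called in NOD-scid mice, 2 with higher and 1 with lower lacrimal signals, and 0 in B6-scid mice by limma (3 at an unadjusted p under 0.05). Ltb4r1 averaged 451 ± 127 (SD, n = 4) in lacrimal and 86.6 ± 6.14 (SD, n = 5) in submandibular gland, and Tbxa2r, the thromboxane receptor, averaged 638 ± 178 (SD, n = 4) and 215 ± 122 (SD, n = 5). Among phospholipase A2 receptors and inhibitors, 1 of 6 was called in NOD-scid and 2 of 6 in B6-scid mice, all lower. Anxa5, an annexin that binds phospholipid, fell by 0.67 and by 0.51 on the log2 scale, NOD-scid first, and Anxa1, known as an inhibitor of phospholipase A2, fell by 1.51 in B6-scid mice. Without B6-scid lacrimal mice 2 and 3 only Anxa1 was called in B6-scid mice, of 5 tested. For the strain difference between these glands limma called 0 of 76 listed genes with all mice (8 at an unadjusted p under 0.05), and Alox12 (lower) and Ltb4r1 (higher) without those mice.

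In reacylation and lysophospholipid metabolism, 8 of 18 genes were called in NOD-scid mice, 2 with higher and 6 with lower lacrimal signals, and 2 of 18 in B6-scid mice, both lower. The B6-scid count is at the background of 10.9%, and the NOD-scid count is above the 15% called over all probe sets, with no test of that difference. The list's median was -0.49 in NOD-scid and -0.21 in B6-scid mice. Acsl5, an acyl-CoA synthetase, fell by 1.68 in NOD-scid and by 1.55 in B6-scid mice, and Agpat2, an acyltransferase, fell by 1.87 in NOD-scid mice. Without NOD-scid lacrimal mouse 4 the counts were 0 higher and 5 lower. Of 20 other phospholipases and lysophospholipases, limma called 2 in NOD-scid and 3 in B6-scid mice, each of them lower in lacrimal gland. Lypla2, a lysophospholipase, fell in both, by 1.03 and by 0.90, NOD-scid first. Without B6-scid lacrimal mice 2 and 3 the B6-scid counts were 1 higher and 2 lower.

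In pancreatic lipid digestion, 1 of 4 genes was called in each strain, and 2 of 4 (Cel, the carboxyl ester lipase, and Pnliprp1) in B6-scid mice without lacrimal mice 2 and 3. Pnliprp1, called in both strains, averaged 57.8 ± 68.0 (SD, n = 5) in B6-scid and 56.4 ± 59.1 (SD, n = 5) in NOD-scid submandibular gland at 15 weeks and far more in lacrimal gland, as given above. Between the ages, limma called 1 of 74 listed genes in each strain. Tbxas1, the thromboxane synthase, fell by 0.81 in B6-scid submandibular gland (-0.81, SE 0.19, adjusted p = 0.0434). Pnliprp1 fell by 2.97 in NOD-scid submandibular gland (-2.97, SE 0.59, adjusted p = 0.0224), where it averaged 1033 ± 1521 (SD, n = 5) at 9 weeks. Lacrimal markers summed there to 842 to 30226 at 9 weeks and 181 to 511 at 15 weeks, and their part in that fall was not tested. Without NOD-scid mouse 1 at 9 weeks, whose acinar sum was high, the fall was -2.31 (adjusted p = 0.0211), and in B6-scid mice Pnliprp1 (-2.24, adjusted p = 0.0132) and Clps were then called lower as well.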

How the data were processed

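The 39 samples, each of pancreas, submandibular gland or lacrimal gland, were hybridised to 3 Affymetrix designs, which made 117 arrays. Each sample was counted as 1 mouse. The sample titles do not say whether different glands came from the same animals, so the number of animals may be smaller than 39. The submitters' processing notes name MAS5, and the values the authors deposited fit that unit: linear intensities whose 2% trimmed mean was 2500.5 to 2501.7 on every array. They were rescaled to a trimmed mean of 500. No detection calls or probe sequences were used here, and the only genome build was that of the RefSeq gene table. Gene symbols came from the platform annotation (29131 probe sets with 1 symbol, 724 with several, 6846 with none), and 29044 matched RefSeq GRCm38.p6.

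Tests were moderated linear models (limma 3.58.1, functions lmFit and eBayes, under R 4.3.3) of log2(signal + 32), for probe sets with a scaled signal of at least 100 on at least 4 arrays of the fit. Both ages of submandibular gland shared 1 fit, as did both glands of 15 weeks for the gland differences. P-values were adjusted over all 3 designs. The fit was checked on simulated data. All probe sets of the members are named. For lists, 1 probe set per gene was used (design A before B before C, then the highest mean), and up to 4 called genes a list were eligible to be named. Likeness is the highest Pearson correlation over 39 mice. Alternatives were other pseudocounts, filters, normalization, fits, a replicate block and left-out mice. The members, lists and rules were chosen with earlier results of these data known. The sample titles number the replicates of a group, and the p-values set a mean difference against the spread between replicates. The number of arrays limits the precision.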

Additional observations from a re-analysis of the deposited data

Results flagged for a closer look

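In 12 of 152 combinations of a member probe set and a group, 1 mouse stood apart from the rest of its group by Dixon's criterion, which chance meets in about 1 in 20. Pla2g5 94665_at had 4 of them: 217 in B6-scid submandibular mouse 2 at 9 weeks (others 29.3 to 46.3), 130 in B6-scid submandibular mouse 5 at 15 weeks (others 21.3 to 33.6), 159 in NOD-scid submandibular mouse 5 at 15 weeks (others 15.1 to 47.8) and 251 in B6-scid lacrimal mouse 4 (others 28.1 to 86.5). Its sister probe set 101328_at had 323 in B6-scid pancreas mouse 2 (others 29.9 to 79.5).

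Pla2g1b had 4 as well. Probe set 160120_i_at was 110855 in NOD-scid pancreas mouse 1 (others 88282 to 92607), and 168078_f_at was 1459 in B6-scid submandibular mouse 5 at 15 weeks (others 373 to 674). Probe set 165917_r_at was 705 in B6-scid submandibular mouse 1 at 9 weeks (others 78.2 to 190) and 848 in B6-scid submandibular mouse 5 at 15 weeks (others 235 to 377). B6-scid submandibular mouse 5 at 15 weeks thus appeared for 3 probe sets of 2 genes.

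Pla2g2d 112194_f_at was 428 in NOD-scid pancreas mouse 4 (others 813 to 962). Pla2g6 97965_at was 82.9 in NOD-scid submandibular mouse 2 at 9 weeks (others 34.5 to 47.9). Pla2g7 171440_at was 1783 in NOD-scid pancreas mouse 1 (others 1079 to 1253). No Pla2g12a or Pla2g10 value stood apart in this way.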

How the results depend on the processing

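Both submandibular calls of Pla2g12a 104343_f_at held under every alternative run, at -2.61 to -2.37 at 9 weeks and -2.97 to -2.67 at 15 weeks. Of 149 member differences, 50 changed sign under at least 1 alternative, and 0 of these were called with either sign. Among them, without B6-scid lacrimal mice 2 and 3 the B6-scid gland difference went from 0.24 to -0.18 for Pla2g12a 104343_f_at and from 0.39 to -0.51 for Pla2g7 101923_at, and under quantile normalization the pancreas difference of Pla2g1b 168078_f_at went from 0.76 to -0.02. Counts of called member probe sets moved as follows. The pancreas count (1) became 0 with the replicate block and was 0 to 1 with each mouse left out. The lacrimal count (1) became 0 without the filter, with the replicate block and without B6-scid lacrimal mice 2 and 3, 2 in 1 fit of all 39 mice, and 0 to 1 with each mouse left out. The B6-scid gland count (1) became 0 under quantile normalization, with the replicate block and without those 2 mice, 2 in the fit of all 39 mice and with a trend in the prior variance, and 1 to 2 with each mouse left out. The NOD-scid gland count (4) became 2 in the fit of all 39 mice and with the replicate block, and 2 to 4 with each mouse left out. The B6-scid age count (0) became 1 in the fit of all 39 mice and with the trend. The NOD-scid age count (1) became 0 under quantile normalization and 0 to 1 with each mouse left out. The count for the strain difference between glands (0) became 1 without those 2 mice. The trend and the removal of those 2 mice were chosen after seeing the data, and the causes were not tested.

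Counts over all probe sets also moved. With the replicate block they were 43 against 127 in pancreas, 146 against 302 and 107 against 178 in submandibular gland at 9 and 15 weeks, 11 against 265 in lacrimal gland and 3107 against 4728 for the NOD-scid gland difference. In 1 fit of all 39 mice they were 295 in pancreas, 650 in lacrimal gland, and 908 against 340 and 700 against 256 for age in B6-scid and NOD-scid mice. With each mouse left out the age counts were 75 to 364 and 66 to 315 and the lacrimal count was 123 to 203, and without B6-scid lacrimal mice 2 and 3 the lacrimal count was 111. Same-numbered mice of 2 groups correlated in their deviations by at most 0.0853, and 0 pairs exceeded 0.1. The mean over such pairs was highest between the strains in submandibular gland at 9 weeks, at 0.0462 against -0.0116 for other numbers. These correlations cannot tell whether the mouse numbers pair the samples. The block was the mouse number in the pancreas and lacrimal strain fits, and the number within an age in the submandibular fit. For both glands of 15 weeks it was the number within a strain. Age differences could thus not be fitted with it. Low signals limit Pla2g2a, Pla2g4a and Pla2g5, where 0 to 26 mice reached 100 per probe set. They also limit Pla2g6 97965_at (0 mice) and Pla2g7 101923_at (21 mice).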
